A study of Saccharomyces cerevisiae with 9 samples.

Results

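The comparison set YLK806, a yeast strain that carries the BY allele of SAL1 in the RM11-1a background, against RM11-1a itself. It rests on 4 of the 9 arrays of the series, 1 of YLK806 and 3 of RM11-1a, chosen by strain name. RM11-1a derives from a vineyard isolate of Saccharomyces cerevisiae, and BY strains are laboratory strains. Both cultures were grown in minimal medium with 6.7 g/L yeast nitrogen base, 20 g/L glucose, 100 mg/L leucine, 100 mg/L lysine and 20 mg/L uracil. The strains BY4716, YLK804 and YAD350, used below for comparison, had the same medium, with 20 mg/L histidine added for YAD350 only. Each array set the RNA of 1 strain, in the Cy5 channel, against a common pool of RNA from BY4716 and RM11-1a grown on glucose and on ethanol, in the Cy3 channel. Values are log2 ratios of Cy5 over Cy3, and a change is YLK806 minus the mean of the 3 RM11-1a arrays. The labels do not state that the RM11-1a arrays are separate cultures, or how many clones of YLK806 were made, so a p-value reflects array-to-array spread that may be technical.

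Sal1 is a carrier of the mitochondrial inner membrane that exchanges ATP-Mg for phosphate and is activated by calcium on the cytosolic side. It works beside the ADP/ATP carriers Aac1, Pet9 (also called Aac2) and Aac3, and cells that lack both Sal1 and the main ADP/ATP carrier do not grow. The allele of S288C laboratory strains holds a frameshift and is regarded as non-functional, whereas the RM11-1a allele is intact.

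The labels of the YLK806 array disagree on which dye held the strain. Read as Cy5 over Cy3, its ratios correlated across genes with those of RM11-1a replicates 7, 9 and 11 at r = 0.836, 0.900 and 0.886, and with the BY4716 arrays at r between 0.389 and 0.411. Cy5 was therefore read as the strain. Median strain signals were 303 on the YLK806 array, against 237 to 284 on the RM11-1a arrays. The YLK806 array was scanned on another day than every RM11-1a array and read with a later version of the scanner software, so that strain and batch cannot be told apart. It shared that day and software with the array of YLK804, which carries the RM allele of SAL1 in the BY4724 laboratory background. The YLK804 array less the 3 BY4716 arrays is therefore given beside some of the results, as a comparison that shares no control array with this one. A change given without it is not thereby particular to YLK806.

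Strain markers and mating type genes were examined first. URA3, for uracil synthesis, was at -3.04 in YLK806, against -2.42, -2.42 and -2.63 in RM11-1a replicates 7, 9 and 11. The strain channel of LEU2, a leucine synthesis gene, was near background on all 4 arrays. LYS2 and HIS3, for lysine and histidine synthesis, were measured in both strains, with changes of 0.04 ± 0.10 and -0.09 ± 0.05 (SE). STE2, the pheromone receptor of a cells, was at 1.52 in YLK806, against 1.67, 1.63 and 1.48 in RM11-1a. STE3, the receptor of alpha cells, was at -3.42 in YLK806, against -3.03, -3.10 and -3.25 in RM11-1a. The strain channels of URA3 and STE3 were dim too, each well above background on only 1 of 3 RM11-1a arrays. The ratios of URA3, LEU2 and STE3 passed limma's test as lower. Their changes were -0.16, -0.21 and -0.07 in Cy5 and 0.39, 0.53 and 0.22 in Cy3, so the reference channel held most of each. By these genes both strains were of mating type a with low URA3 and LEU2.

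The SAL1 transcript itself did not pass the test. SAL1 was at -0.03 in YLK806, against -0.11, -0.05 and -0.05 in RM11-1a, a change of 0.04 ± 0.05 (SE, adjusted p = 0.60). Its Cy5 channel was higher by 0.41 and its Cy3 channel by 0.36, and the ratio lay just above all 3 RM11-1a arrays. The transcript level says nothing about which allele was present. In YLK804 the SAL1 ratio was lower than in BY4716 by 0.51, and the changes in the 2 backgrounds differed by 0.55 (adjusted p = 0.019).

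Of the genes near SAL1 in the R64 annotation, MKT1 rose. MKT1, which encodes a regulator of messenger RNAs after transcription, was at -0.12 in YLK806, against -0.42, -0.30 and -0.47 in RM11-1a. Its change was 0.28 ± 0.07 (SE, adjusted p = 0.030), with 0.35 in Cy5 and 0.07 in Cy3. END3, an endocytosis gene, changed by 0.03 ± 0.10, and SWS2, for a mitochondrial ribosomal protein, by 0.12 ± 0.09 (SE), and neither passed. PMS1, for mismatch repair, was at -0.39 in YLK806, against -0.04, -0.25 and -0.04 in RM11-1a, and just failed (-0.28 ± 0.09 SE, adjusted p = 0.052). Further out, and chosen after their values were seen, SNN1 and EOS1 fell by 0.21 and by 0.43, and TCB2 had a ratio lower by 0.39. The Cy5 changes of SNN1 and EOS1 were -0.21 and -0.91. TCB2 changed by -0.17 in Cy5 and 0.22 in Cy3, so the strain channel did not carry it, and its ratio changed by -0.13 in YLK804. SNN1 and EOS1 had like values of -0.19 and -0.39 in YLK804 less BY4716. MKT1 and PMS1 changed by 0.17 and -0.31 in YLK804, and their differences from YLK804 did not pass (adjusted p = 0.75 and 0.96). MKT1 lost its call in 9 of the 19 alternatives, among them without RM11-1a replicate 7 or without any 1 of the BY4716 arrays (adjusted p between 0.050 and 0.061).

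Among the adenine nucleotide carriers, AAC1 fell. AAC1, a minor ADP/ATP carrier, was at -1.70 in YLK806, against -1.10, -0.69 and -0.88 in RM11-1a, below all 3 arrays. Its change was -0.81 ± 0.13 (SE, adjusted p = 0.0087), with -0.57 in Cy5 and 0.23 in Cy3. AAC3, the carrier expressed without oxygen, was at -0.08 in YLK806, against 0.24, 0.23 and 0.15 in RM11-1a. Its ratio passed as lower (-0.29, adjusted p = 0.025), with 0.01 in Cy5 and 0.31 in Cy3. In YLK804, AAC1 changed by -0.20 and AAC3 by -0.25, and neither passed the test of a difference between the 2 strains' changes. PET9, the main carrier, was at -0.06 in YLK806, against 0.04 and 0.06 in RM11-1a replicates 7 and 11, since its spot on replicate 9 was dropped as an outlier. PET9, the coenzyme A carrier gene LEU5 and the peroxisomal carrier gene ANT1 did not pass, with changes of -0.11, 0.14 and 0.13. In total 2 of the 6 carriers passed, both lower, where 22.5% of all genes passed in either direction.

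Across all genes, 1320 of 5863 tested passed limma's test at a Benjamini-Hochberg adjusted p under 0.05, which is 22.5%. Of these, 631 were higher in YLK806 (10.8%) and 689 were lower (11.8%). Most were small, with a median size of 1.24-fold, and 20 genes (0.341%) reached 2-fold. The spread came from the 6 parental arrays, and the single YLK806 array was assumed to vary like them. With only the 4 arrays of the comparison in the fit, 144 genes passed (2.46%), and against a 1.2-fold change 32 passed (0.546%). Without BY4716 replicate 7 the count was 867, and without BY4716 replicate 11 it was 856.

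Many of these calls moved alike in the other SAL1 exchange strain, whose allele was changed in the opposite direction. Of the 1320 genes, 93.2% had the same sign in YLK804 less BY4716, beside 75.6% of all genes tested, and 695 of them also passed there in the same direction. After the mean shift of YLK804 and YAD350 (an MKT1 replacement strain) from BY4716 was subtracted, 196 genes passed (3.35%), 68 higher (1.16%) and 128 lower (2.19%), and 79 of those were among the 1320 with the same sign. The YLK806 and YLK804 arrays share scan day and software. The YAD350 array was scanned on another day and read with the same software version as the parental arrays. The YAD350 medium held added histidine, unlike that of the other strains. The part of day, software and medium in the shift was not tested.

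The channels separated the calls further. The changes of the Cy5 and Cy3 channels correlated across genes at r = 0.832, over 5863 genes that share a spot in each channel. A change was counted as carried by Cy5 where the strain channel moved in the direction of the ratio and by more than the reference channel. This held for 462 of the 1320 genes (7.88% of all tested), 253 higher (4.32%) and 209 lower (3.56%), while in the other 858 the reference channel moved at least as much. The same pool was the reference on every array by its label, so the Cy3 change is a difference between arrays and not a level of the strain.

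**Figure D1:**
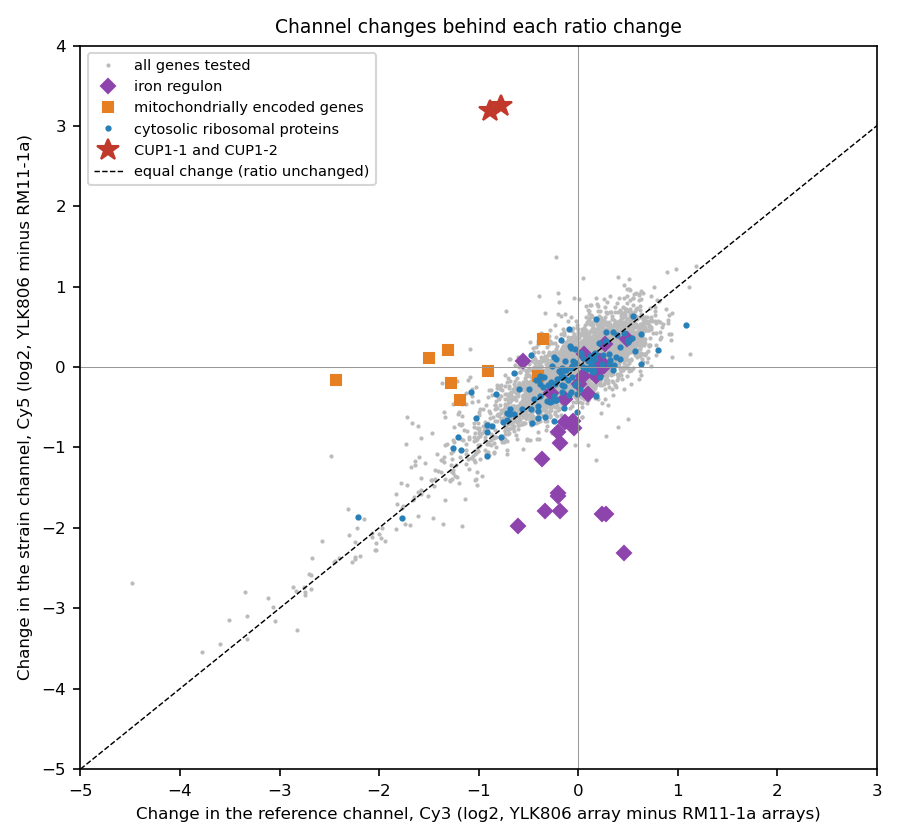
Change of the strain channel, Cy5 (vertical axis, log2), against the change of the reference channel, Cy3 (horizontal axis, log2), for each of 5863 genes, YLK806 array less the mean of the RM11-1a arrays. CUP1-1 and CUP1-2 lie at Cy5 changes of 3.25 and 3.18, iron regulon genes extend down to -2.31 in Cy5, and the mitochondrially encoded genes extend left to -2.43 in Cy3, away from the dashed line of equal change.

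The metallothionein genes rose most of all genes tested. CUP1-1, for the copper-binding protein that gives copper resistance, was at 0.45 in YLK806, against -3.40, -3.53 and -3.77 in RM11-1a replicates 7, 9 and 11. CUP1-2 was at 0.46 in YLK806, against -3.44, -3.54 and -3.81 in RM11-1a. The YLK806 value lay above every RM11-1a array by more than 3 log2 units. The changes were 4.02 ± 0.47 and 4.06 ± 0.48 (SE, adjusted p = 0.0046 for both), a fold change of 16.2 for CUP1-1. In the strain channel CUP1-1 had a log2 level of 11.5 in YLK806, against 8.33, 8.39 and 7.94 in RM11-1a, and the reference channel was lower by 0.77. The 2 genes are near-identical copies that share signal and count as 1 measurement.

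CUP1 levels in the laboratory background lay between those of YLK806 and RM11-1a, with a CUP1-1 mean of -1.47 in BY4716 and a value of -1.09 in YLK804. The YLK804 change was 0.38, and the test of the difference between both changes did not pass (adjusted p = 0.075). YHR054C, which lies between the CUP1 copies, and the adjacent RSC30, for a chromatin remodelling subunit, were chosen after their values were seen. YHR054C was at -0.97 in YLK806, against -1.13, -1.23 and -1.22 in RM11-1a, and RSC30 gave nearly the same values. Their changes were 0.23 each, with 0.05 and -0.04 in Cy5 and -0.17 and -0.26 in Cy3, so the strain channel did not carry them. In YLK804 they changed by 0.32 and 0.30. CIC1, on the other side of the copies and also chosen after its values were seen, was at 0.34 in YLK806, against -0.09, -0.05 and -0.01 in RM11-1a. It rose by 0.39 ± 0.06 (SE, adjusted p = 0.0072), with 0.57 in Cy5 and 0.18 in Cy3, and changed by 0.04 in YLK804.

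Among other copper genes, CRS5, a second metallothionein gene, had a ratio higher by 0.40 ± 0.06 (SE, adjusted p = 0.0072), of which 0.08 was in the Cy5 channel. ATX1, the chaperone that delivers copper to the secretory pathway, was at -0.14 in YLK806, against 1.22, 0.82 and 0.99 in RM11-1a, and fell by 1.15 ± 0.13 (SE, adjusted p = 0.0046). ATX1 changed by -0.91 in YLK804. CUP2, the activator of CUP1, was at -0.34 in YLK806, against -0.02, -0.04 and -0.01 in RM11-1a, with a ratio lower by 0.31 ± 0.05 (SE, adjusted p = 0.0086), 0.15 in Cy5 and 0.46 in Cy3. The copper transporter gene CTR1 was at -0.60 in YLK806, against 0.58, -0.11 and 1.18 in RM11-1a, and CTR3 was at -0.45 in YLK806, against 0.87, -0.28 and 1.29 in RM11-1a. For both genes YLK806 lay below all RM11-1a arrays, which were themselves spread over more than 1 log2 unit, and neither passed (adjusted p = 0.079 and 0.15). CTR2, for release of copper from the vacuole, passed at -0.55 ± 0.14 (SE, adjusted p = 0.035), with near-equal parts in both channels (-0.27 in Cy5 and 0.28 in Cy3). In YLK804, CRS5 changed by 0.41, CUP2 by -0.24 and CTR2 by -0.12. ATX1 and CUP2 are not on the copper and zinc list. Of its 16 genes 3 were higher and 3 were lower, beside 10.8% and 11.8% of all genes. The higher ones were CRS5 and the 2 CUP1 copies, which count as 1 measurement. The lower ones were CTR2 and the zinc-regulated IZH1 and IZH2.

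Iron regulon genes, which the factors Aft1 and Aft2 turn on when iron is scarce, had a median change of -0.49, beside -0.01 for all genes. Their median Cy5 change was -0.53 and their median Cy3 change -0.02. YLK806 lay below all 3 RM11-1a arrays for 22 of 28 genes (39.6% of all genes tested). Only TIS11 and VHT1 passed the test, both lower and both carried by Cy5, a share of 7.14% beside 22.5% of all genes. In YLK804 the median change of the list was -0.13.

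TIS11, for a protein that promotes decay of messenger RNAs when iron is scarce, was at -1.98 in YLK806, against 2.09, -0.29 and 0.57 in RM11-1a. Its change was -2.77 ± 0.79 (SE, adjusted p = 0.043), and the RM11-1a arrays alone spanned more than 2 log2 units. VHT1, the biotin transporter gene, was at -0.72 in YLK806, against 0.02, -0.32 and -0.05 in RM11-1a (change -0.60 ± 0.13 SE, adjusted p = 0.021). The siderophore transporter gene ARN1 was at -1.53 in YLK806, against 1.64, -0.23 and 0.21 in RM11-1a, and SIT1 was at -2.55 in YLK806, against 0.85, -1.39 and -0.78 in RM11-1a. These 2 genes had large changes of -2.08 and -2.11 that did not pass (adjusted p = 0.057 and 0.086). In YLK804 the changes were -1.09 for TIS11, -0.84 for ARN1 and -1.01 for SIT1, and none of the 3 passed the test of a difference between the strains' changes (adjusted p between 0.63 and 0.76). For TIS11, VHT1, ARN1 and SIT1, among the arrays of the comparison, YLK806 was the lowest and RM11-1a replicate 7 the highest. The YLK804 array was lower than YLK806 for each, at -2.16, -1.19, -2.53 and -2.74.

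RM11-1a replicate 7 stood apart for this list. The median ratio over the 28 genes was -0.39 in YLK806, against 0.69, -0.22 and -0.17 in RM11-1a replicates 7, 9 and 11. Without replicate 7 the median change was -0.27, and 11 of 28 genes fell, where 9.65% of all genes did. TIS11 then changed by -2.12 (adjusted p = 0.017), ARN1 by -1.52 (adjusted p = 0.019), SIT1 by -1.46 (adjusted p = 0.036) and the ferric reductase gene FRE2 by -0.75 (adjusted p = 0.018). FET3, the multicopper oxidase of high-affinity uptake, did not pass either way, with -0.29 on all arrays and 0.18 without replicate 7. TIS11 lost its call in 9 of the 19 alternatives, among them leaving out RM11-1a replicate 11 or any 1 of the BY4716 arrays (adjusted p between 0.062 and 0.073).

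**Figure D2:**
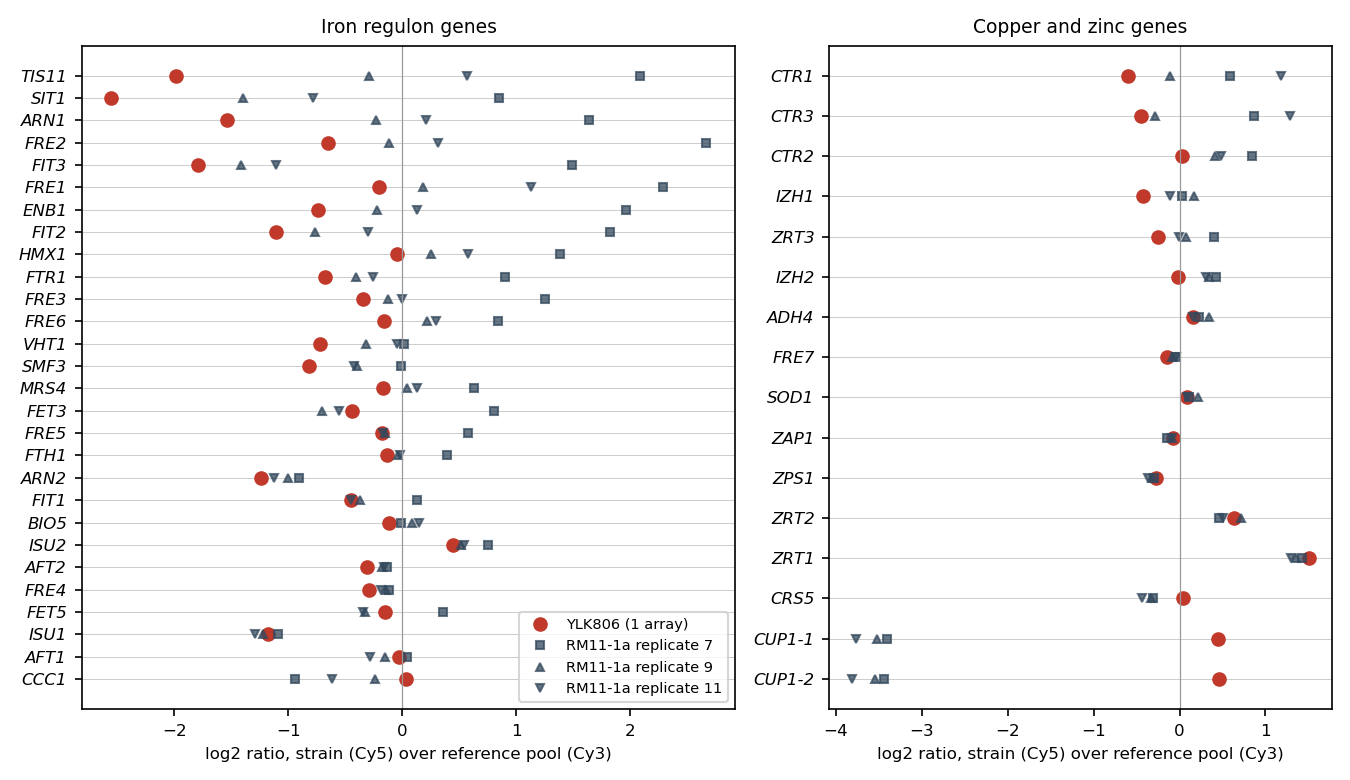
Log2 ratio of strain (Cy5) over reference pool (Cy3) on each array for 28 iron regulon genes (left) and 16 copper and zinc genes (right), with YLK806 as red circles and each RM11-1a array as a grey symbol. YLK806 lies left of all RM11-1a arrays for 22 iron genes, replicate 7 (squares) lies furthest right for most of them, and the CUP1 copies of YLK806 lie near 0.46 against -3.40 to -3.81 in RM11-1a.

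After CUP1, the largest Cy5-carried rises moved by like amounts in YLK804. YBR096W, whose role is not given here, was at 1.16 in YLK806, against -0.44, -0.32 and -0.54 in RM11-1a, a change of 1.59 ± 0.13 (SE, adjusted p = 0.0022), and changed by 1.61 in YLK804. MRPL8, for a mitochondrial ribosomal protein, changed by 1.27 in YLK806 and 1.25 in YLK804. CKA2, a catalytic subunit of casein kinase 2, changed by 1.13 in YLK806 and 1.09 in YLK804. PSA1, the enzyme that makes GDP-mannose, PAN1, an actin and endocytosis factor, PRI2, a DNA primase subunit, and COQ5, of ubiquinone synthesis, followed in the same way. Their changes were 1.07, 1.00, 0.86 and 0.83 in YLK806, with 0.91, 0.99, 0.74 and 0.74 in YLK804. In YAD350 less BY4716, YBR096W, MRPL8, CKA2, PSA1, PAN1, PRI2 and COQ5 changed by 1.80, 1.47, 1.37, 2.06, 1.16, 0.64 and 1.19. None of these genes passed the test of a difference between the 2 strains' changes, where adjusted p lay between 0.80 and 0.99.

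The remaining rises among the 12 had smaller counterparts in YLK804, though their differences were not past the test either. ERC1, a transporter gene of ethionine resistance, was at 0.72 in YLK806, against -0.29, -0.05 and -0.23 in RM11-1a, and rose by 0.91 ± 0.11 (SE, adjusted p = 0.0046). RPN5, a proteasome lid subunit, rose by 0.81 ± 0.13, and HBT1, for a protein of the mating projection, by 0.79 ± 0.18 (SE). HBT1 changed by 0.07 in YLK804. COG4, for a Golgi trafficking complex, was chosen after its values were seen, because it passed with the same sign in every alternative run. Its YLK804 change was 0.30. It was at -0.21 in YLK806, against -0.95, -0.88 and -0.90 in RM11-1a, a change of 0.70 ± 0.05 (SE, adjusted p = 0.0020), with 0.63 in the Cy5 channel.

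Among the falls, CIT2 and MFA2 also passed in all 19 alternatives, as did both CUP1 copies. CIT2, the peroxisomal citrate synthase and a target of mitochondrial retrograde signalling, was at -4.49 in YLK806, against -3.83, -3.65 and -3.70 in RM11-1a. It fell by 0.77 ± 0.09 (SE, adjusted p = 0.0042), with -0.47 in Cy5 and 0.30 in Cy3, and its YLK804 change was -0.08. The difference between these changes did not pass (adjusted p = 0.064). MFA2, for the a-factor pheromone, was at 0.79 in YLK806, against 1.62, 1.62 and 1.57 in RM11-1a. Both of its channels were lower, with -1.98 in Cy5 and -1.17 in Cy3, and MFA1, the other a-factor gene, did not pass (-0.18, adjusted p = 0.085). MFA2 changed by 3.20 in YLK804, which differs from BY4716 in mating type. The MFA2 value of -2.38 after subtraction of the YLK804 and YAD350 shift is therefore no support for its fall. The remaining 6 mating type a genes on the list had changes between -0.18 and 0.04 and none passed.

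AHP1, a thiol peroxidase, was at 0.44 in YLK806, against 1.12, 1.11 and 1.14 in RM11-1a, and fell by 0.69 ± 0.08 (SE, adjusted p = 0.0046). IRC7, a carbon-sulphur lyase, fell by 0.68, the alcohol dehydrogenase isozyme gene ADH5 by 0.66, and BUD22, of ribosomal RNA maturation, by 0.65. In YLK804 the changes were -0.41 for AHP1, -0.09 for IRC7, -0.51 for ADH5 and -0.69 for BUD22, and of these AHP1, ADH5 and BUD22 passed there. SNZ1, of vitamin B6 synthesis, was at -1.37 in YLK806, against -0.77, -0.77 and -0.79 in RM11-1a, and fell by 0.59, with a change of -0.59 in YLK804. GSC2, the inducible subunit of glucan synthase, was at -2.26 in YLK806, against -1.65, -1.62 and -1.75 in RM11-1a. GSC2 fell by 0.58 ± 0.08 (SE, adjusted p = 0.0059), with -0.63 in Cy5 and -0.05 in Cy3.

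**Figure D3:**
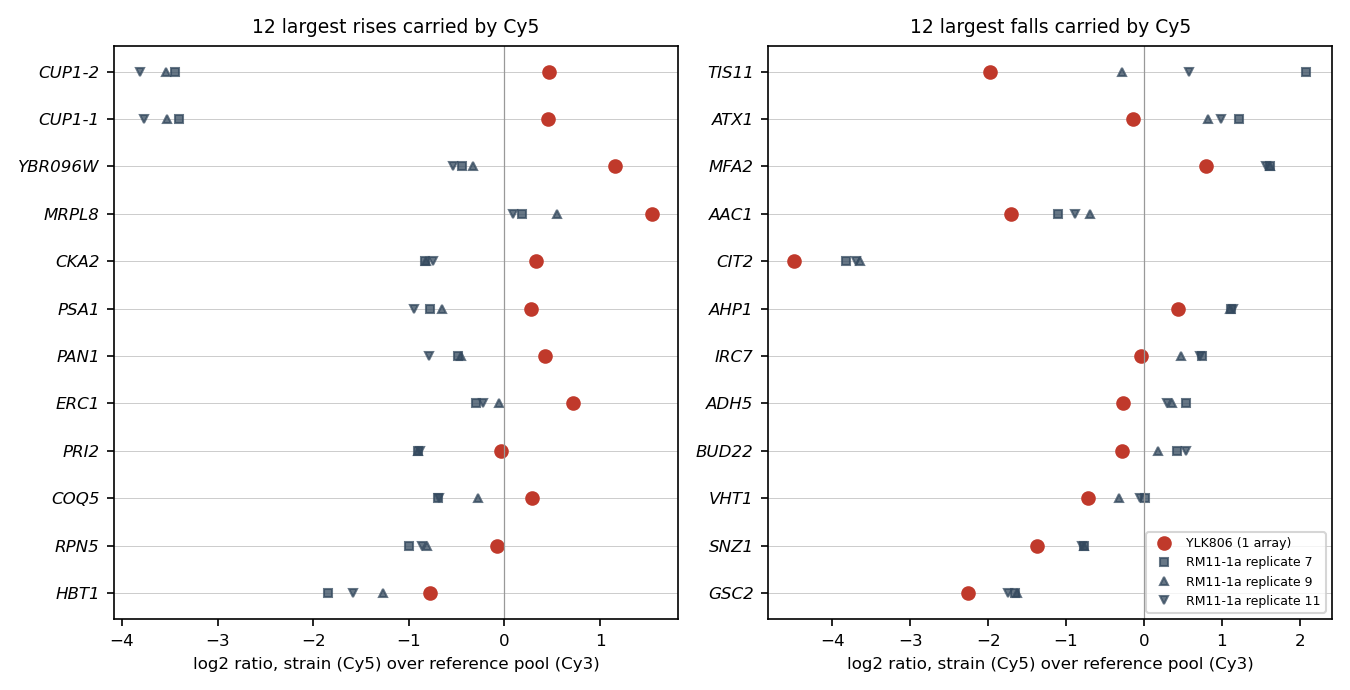
Log2 ratio of strain (Cy5) over reference pool (Cy3) on each array for the 12 largest rises (left) and 12 largest falls (right) among called genes carried by Cy5, with YLK806 as red circles and the RM11-1a arrays as grey symbols. YLK806 lies outside the RM11-1a arrays for every gene shown, as the choice of genes required (73.8% of all genes tested), by more than 3 log2 units for the CUP1 copies, and the RM11-1a arrays are spread widest for TIS11.

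In the difference test, 50 of 5863 genes (0.853%) had a change in YLK806 that differed from the change in YLK804, and 13 of them were members of the strain marker and mating type lists. BY4716 is of mating type alpha with high URA3, and YLK804 is of mating type a with low URA3, so YLK804 less BY4716 also compares these markers. Of the 50, 24 were also among the 1320 genes called in YLK806. Of these 24, 19 were outside the marker and mating type lists, and 8 of those 19 were carried by Cy5. MATALPHA1 and HMLALPHA1, which are mating type genes, are among the 19. So are YCR041W, YCR097W-A and URA1, with large changes of -2.28, -2.12 and 2.23 in YLK804, and URA1 is among the 8 carried by Cy5. The part of mating type and URA3 in these differences was not tested.

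DLD3, a D-lactate dehydrogenase of the cytosol and a second retrograde target, was at -0.98 in YLK806, against -0.54, -0.60 and -0.55 in RM11-1a. It fell by 0.42 ± 0.05 (SE, adjusted p = 0.0046), with -0.73 in the Cy5 channel, and changed by 0.11 in YLK804 (adjusted p of the difference 0.016). DIC1, the mitochondrial dicarboxylate carrier, was at 0.42 in YLK806, against 0.89, 0.96 and 0.96 in RM11-1a. It fell by 0.52 ± 0.08 (SE, adjusted p = 0.0071), with -0.64 in the Cy5 channel, and changed by 0.17 in YLK804 (adjusted p of the difference 0.047). GSC2 changed by 0.34 in YLK804 (adjusted p of the difference 0.014). CUP9, a repressor of peptide transport, had a ratio lower by 0.33 ± 0.05 (SE), but its Cy5 channel was higher by 0.33. For DLD3, DIC1 and GSC2 YLK806 lay below all RM11-1a arrays.

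**Figure D4:**
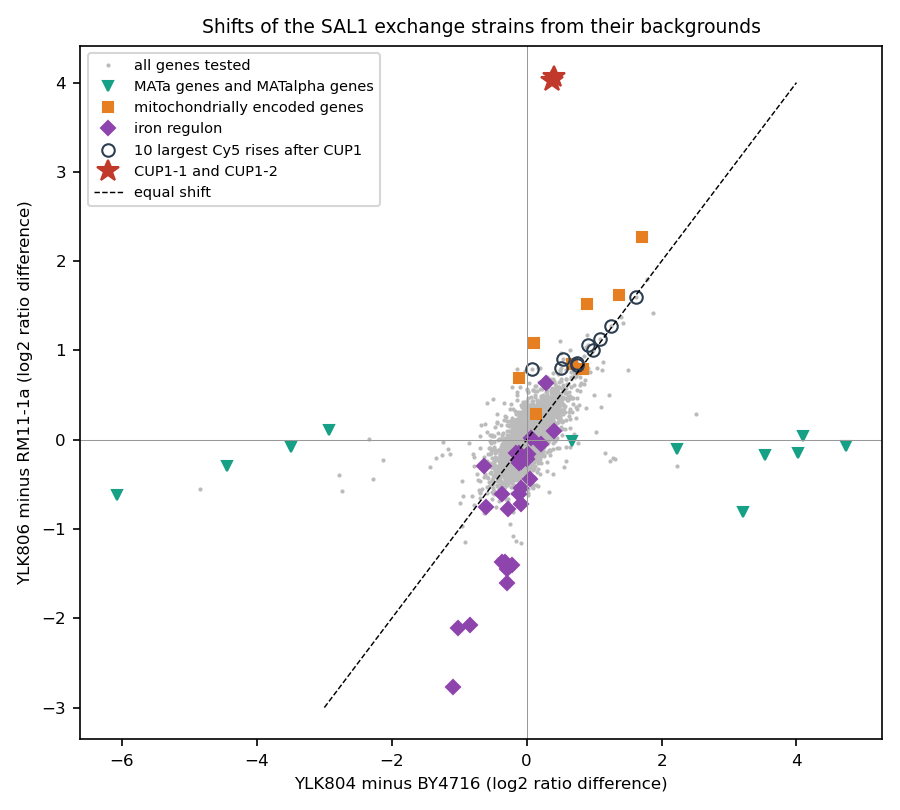
Change of each of 5863 genes in YLK806 less RM11-1a (vertical axis, log2) against its change in YLK804 less BY4716 (horizontal axis, log2), with the dashed line marking equal shifts. YBR096W, CKA2 and PAN1 lie near the dashed line, HBT1 (0.79 against 0.07) lies above it, the CUP1 copies lie far above it, and the mating type genes lie along the horizontal axis.

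Retrograde response genes differed in direction. Of 15 genes 3 were lower (CIT2, DLD3 and CIT3) and 1 was higher (RTG1), beside 11.8% and 10.8% of all genes. The median was -0.02, and CIT3 was not carried by Cy5. Without RM11-1a replicate 7, 2 of the 15 were lower and 0 were higher by limma's test. ACO1, aconitase, was at -1.05 in YLK806, against -2.27, -1.11 and -1.53 in RM11-1a, and did not pass. The isocitrate dehydrogenase genes IDH1 and IDH2 changed by 0.14 and 0.13 and did not pass. Among 24 other mitochondrial carriers 3 were higher and 4 were lower, with a median of -0.06. The lower ones included the carnitine carrier gene CRC1, at -5.15 in YLK806, against -4.24, -3.94 and -4.37 in RM11-1a, whose Cy5 channel was higher by 0.16 and whose Cy3 channel was higher by 1.13.

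All 8 protein genes of the mitochondrial genome had higher ratios, with a median change of 0.97, but the strain channel did not carry this. Their median change was -0.08 in Cy5 and -1.24 in Cy3, and in YLK804 their median ratio change was 0.76. COB, for cytochrome b, was at 0.48 in YLK806, against -1.17, -1.36 and -0.86 in RM11-1a, with 0.12 in Cy5 and -1.50 in Cy3. OLI1, for a subunit of ATP synthase, was at -0.48 in YLK806, against -1.61, -1.64 and -1.44 in RM11-1a, with -0.20 in Cy5 and -1.28 in Cy3. OLI1 changed by 1.08 in YLK806 and 0.11 in YLK804 (adjusted p of the difference 0.014). Of 18 tested features of the mitochondrial genome, 14 passed, all higher, where 10.8% of all genes passed as higher. YLK806 lay above every RM11-1a array for all 18 features, and for 34.4% of all genes tested.

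In the strain channel, ATP6 and ATP8 had only a bound. ATP6 was well above background in Cy5 in YLK806 and on 0 of 3 RM11-1a arrays, and was at least 1.07-fold brighter in YLK806 (adjusted p of its ratio change 0.0011). ATP8 was not well above background in YLK806 and was so on 2 of 3 RM11-1a arrays, and was at least 1.12-fold lower. Each bound sets the brighter group's mean against the dimmest measurable signal of the other group or the probe's own, whichever is higher, in 1 channel, and no dyes were swapped. VAR1 was not well above background in Cy5 on any of the 4 arrays. Outside the mitochondrial genome, the largest changes carried by Cy3 were BUD19 at 1.80 and the heat shock gene HSP12 at 1.42. BUD19 overlaps the ribosomal protein gene RPL39, from which its signal may not be told apart, and both of its channels were lower, with -2.68 in Cy5 and -4.48 in Cy3. HSP12 was at -0.13 in YLK806, against -2.13, -1.26 and -1.26 in RM11-1a, with 0.70 in Cy5 and -0.72 in Cy3. In YLK804, HSP12 changed by 1.87 and BUD19 by 1.78.

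Nuclear genes of respiration had small changes that few members carried past the test. Of 13 TCA cycle genes 1 rose (MDH1) and 1 fell (CIT3), beside 10.8% and 11.8% of all genes, with a median of 0.30. Without RM11-1a replicate 7, 2 were higher and 0 lower, beside 9.6% and 9.65% of all genes. MDH1, mitochondrial malate dehydrogenase, was at -0.49 in YLK806, against -1.33, -0.95 and -0.98 in RM11-1a, and rose by 0.60 ± 0.14 (SE, adjusted p = 0.024), with 0.57 in the Cy5 channel. Of 15 genes of complexes II and III none passed limma's test, beside 22.5% of all genes, with a median of 0.29. Of these 15, 1 had an unadjusted p under 0.05, beside 2251 of all 5863 genes tested. SDH1, the flavoprotein of succinate dehydrogenase, was at -0.86 in YLK806, against -1.94, -1.05 and -1.26 in RM11-1a. RM11-1a replicate 7 was the lowest array for MDH1 and SDH1, and without it the median was 0.22 for the TCA cycle and 0.09 for complexes II and III. Without it 2 of the 15 genes were higher and 1 was lower, where 9.6% and 9.65% of all genes were.

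Of 17 ATP synthase genes 5 were higher and 2 were lower, beside 10.8% and 11.8% of all genes. Their median ratio change was 0.13 but their median Cy5 change was -0.16, and 2 of the 5 higher genes were carried by Cy5. ATP1, the alpha subunit, was at -0.24 in YLK806, against -0.95, -0.58 and -0.81 in RM11-1a, and rose by 0.55 ± 0.12 (SE, adjusted p = 0.020), with 0.40 in the Cy5 channel. ATP2, the beta subunit, had a ratio higher by 0.70, with -0.46 in Cy5 and -1.17 in Cy3. In YLK804, ATP2 changed by 0.71 and ATP1 by 0.15. Of 6 alternative NADH and lactate dehydrogenases 2 were higher. DLD1, the mitochondrial D-lactate dehydrogenase, was at 0.17 in YLK806, against -0.16, -0.24 and -0.19 in RM11-1a, and rose by 0.37 ± 0.05 (SE, adjusted p = 0.0059), nearly all in Cy5. NDI1, the internal NADH dehydrogenase, was higher by 0.73, of which 0.33 was in the Cy5 channel. Mitochondrial ribosomal protein genes were higher in 7 of 71 cases and lower in none, with a median of 0.09, beside 10.8% and 11.8% of all genes. Without RM11-1a replicate 7, 7 were higher and 5 were lower, and the median was 0.02. MRP51, of the small subunit, was at 0.44 in YLK806, against -0.30, -0.13 and -0.12 in RM11-1a, and rose by 0.62 ± 0.08 (SE, adjusted p = 0.0049). MRP51 changed by 0.43 in YLK804.

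**Figure D5:**
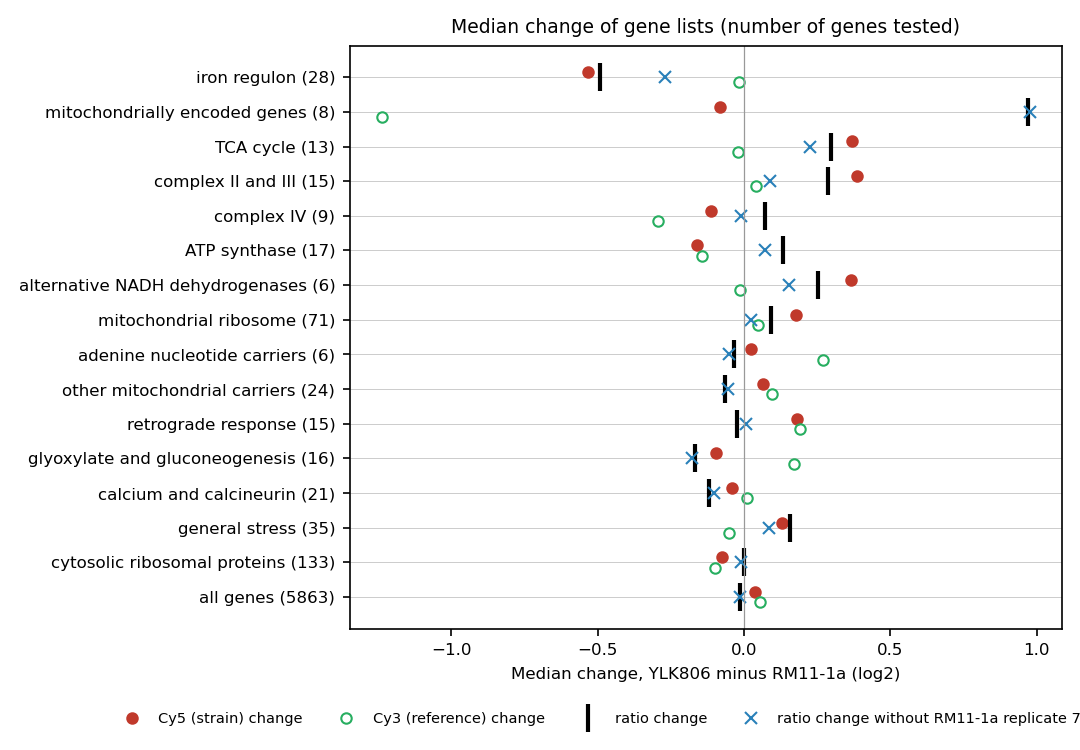
Median change of 15 gene lists and of all genes in YLK806 less RM11-1a (log2), with the ratio change as a black bar, the strain channel Cy5 as filled red circles, the reference channel Cy3 as open green circles, and the ratio change without RM11-1a replicate 7 as blue crosses. The iron regulon moves with Cy5 (-0.53), the mitochondrially encoded genes with Cy3 (-1.24), and the crosses of complexes II and III (0.09) and the iron regulon (-0.27) lie nearer to 0 than the bars.

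Genes of calcium signalling were followed because calcium activates Sal1. Of 21 genes 3 were higher and 6 were lower, with a median of -0.12, beside 10.8% and 11.8% of all genes. Without RM11-1a replicate 7, 1 was higher and 4 were lower. PMR1, the calcium pump of the Golgi, was at 0.09 in YLK806, against -0.22, -0.22 and -0.35 in RM11-1a, and rose by 0.36 ± 0.07 (SE, adjusted p = 0.012). PMR1 also changed by 0.33 in YLK804. CMD1, calmodulin, had a ratio lower by 0.29, with 0.09 in Cy5 and 0.38 in Cy3. GSC2, which calcineurin induces, was the largest fall of the list, and the transcription factor gene CRZ1 was not past the test.

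For the further lists, 10.8% of all genes were higher and 11.8% were lower. Ergosterol genes were lower in 5 and higher in 0 of 24 cases, purine genes lower in 4 and higher in 0 of 22, and hexose transporter genes lower in 4 and higher in 0 of 17, by limma's test. Of these lower genes, 1 ergosterol gene, 0 purine genes and 2 hexose transporter genes were carried by Cy5. Cytosolic ribosomal protein genes were higher in 20 and lower in 24 of 133 cases, with a median near 0. Thiamine and pyridoxine genes were lower in 8 and higher in 1 of 21 cases (8 and 0 without RM11-1a replicate 7), yet only SNZ1 and SNO1 of the lower ones were carried by Cy5, and THI5 and THI20 had higher Cy5 values by 0.12 and 0.07. Arginine genes were higher in 3 and lower in 4 of 11 cases, with ARG4 at 0.26 and ARG7 at -0.33. Phospholipid genes were lower in 5 and higher in 2 of 18 cases, and lower in 4 and higher in 1 without RM11-1a replicate 7. CHO1, phosphatidylserine synthase, was at 0.39 in YLK806, against 0.83, 0.82 and 0.83 in RM11-1a, and fell by 0.43 ± 0.05 (SE, adjusted p = 0.0042). ITR1, the inositol transporter, fell by 0.36 ± 0.08 (SE, adjusted p = 0.019), and for both genes YLK806 lay below all RM11-1a arrays with the change mostly in the strain channel.

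Chaperone genes were lower in 5 and higher in 4 of 24 cases, beside 11.8% and 10.8% of all genes. HSP10 and CPR1, a mitochondrial chaperonin and a cyclophilin, had ratios lower by 0.59 and by 0.50, with higher values in both channels. SSC1, the mitochondrial Hsp70, was at 0.18 in YLK806, against -0.56, -0.20 and -0.31 in RM11-1a, and rose by 0.53 ± 0.12 (SE, adjusted p = 0.024). Of 35 general stress genes 5 were higher and 5 were lower, and 9 were higher and 5 lower without RM11-1a replicate 7. The catalase gene CTT1 was at 0.72 in YLK806, against -1.06, 0.22 and -0.01 in RM11-1a, and did not pass with all arrays (adjusted p = 0.12). Subtelomeric COS genes were lower in 4 of 11 cases, but in 1 without RM11-1a replicate 7. COS6, at -0.35, then lost its call (adjusted p = 0.061). Their probes may share signal within the family.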

How the data were processed

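RNA of 5 strains was measured on 9 Agilent arrays with 2 channels. The deposited scanner files hold spot intensity in both channels and a deposited log10 ratio, and the authors' deposited value table holds log2 ratios that equalled the scanner's within 5e-04. Feature Extraction 9.1.3.1 read the YLK804 and YLK806 arrays and 8.5.1.1 the others, per the file headers. In limma 3.58.1 under R 4.3.3, mean signals were corrected by normexp (offset 50, which draws ratios toward 0) and normalized by loess within arrays. Control spots had weight 0, outlier-flagged spots were dropped and spots were averaged per gene. Kept genes stood well above background in 1 channel or the other on 3 or more arrays (5865 of 6256), and 5863 could be fitted. Channel levels came from Aquantile normalization. One model with 5 groups was fitted to 9 arrays (lmFit, eBayes, 4 residual degrees of freedom), and SE comes from it. Adjusted p-values are limma's, with Benjamini-Hochberg adjustment over all genes fitted. The procedure was tested on simulated data. Alternatives changed the background correction, the normalization, the filter, the scan day and replicate terms and the arrays in the fit, or used the deposited ratios.

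Named genes were the 12 largest rises and 12 largest falls carried by Cy5 outside the RM11-1a range, the 5 largest changes carried by Cy3, and the 3 called members with the smallest p in each list with at least 1 in 3 tested members called. The SAL1 locus, strain marker, adenine nucleotide carrier and mating type lists were always named. Other genes named were chosen after their values were seen. Members and lists were chosen with earlier results of these data known. Gene symbols were taken from R64, with 5756 matches. Probe sequences were not used here. Some genes that the rule names are not reported here.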

Additional observations from a re-analysis of the deposited data

Results flagged for a closer look

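Results are listed here because the change in YLK806 less RM11-1a differed, by limma's test of the difference, from the change in YLK804 less BY4716. The values are the first change minus the second, on the log2 scale. Genes of mating type a had differences of -4.80 for STE2, -4.17 for BAR1, -4.06 for STE6, -4.01 for MFA2, -3.70 for MFA1, -2.34 for ASG7 and -0.68 for AGA2. Genes of mating type alpha had differences of 5.45 for MF(ALPHA)1, 4.16 for STE3, 3.41 for SAG1 and 3.04 for MF(ALPHA)2. URA3 differed by 4.29. BY4716 is of mating type alpha with high URA3, whereas YLK804, YLK806 and RM11-1a are of mating type a with low URA3. LEU2 differed by -0.64, and its strain channel was near background in YLK806 and RM11-1a. The strain channel of MF(ALPHA)2 was not well above background in YLK806 or on any RM11-1a array. For URA3, STE3 and MF(ALPHA)1 it was well above background on only 1, 1 and 2 of the RM11-1a arrays, so the sizes of these differences are inexact.

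Of the 50 genes that passed this test 37 are outside the strain marker and mating type lists, though the mating type genes MATALPHA1 and HMLALPHA1 are among the 37. For genes of the 37 named in the comparison, the differences were 0.97 for OLI1, 0.55 for SAL1, -0.92 for GSC2, -0.69 for DIC1, -0.53 for DLD3 and -0.44 for CUP9. OLI1 moved through the Cy3 channel in YLK806. The CUP1 copies, with the largest change of all, did not pass this test.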

How the results depend on the processing

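The count of genes called in YLK806 less RM11-1a was 1320 (631 higher, 689 lower). It was 800 (343 and 457) with median centring within arrays, 144 (96 and 48) with only the 4 arrays, 196 (68 and 128) once the average YLK804 and YAD350 shift was subtracted and 32 (25 and 7) against a 1.2-fold change. Leaving out 1 parental array gave 856 to 1562 in all, 446 to 760 higher, 410 to 802 lower and 18 to 30 at 2-fold or more. The 20 genes at 2-fold or more became 59 with normexp at offset 0, 84 in the deposited ratios, 46 with scaling between arrays and 12 against a 1.2-fold change. The count of 50 genes that differed from the YLK804 change became 81 with scaling between arrays and 28 where detection in both channels on all arrays was required, and 28 to 63 without 1 parental array. The cause was not tested. No paired analysis was possible because YLK806 and RM11-1a share no replicate number. A replicate block for the parental arrays gave 749 genes (370 higher, 379 lower) and 27 differences, and same-numbered parental arrays correlated at -0.209, 0.137 and -0.176 in their deviations, so the numbers only name the arrays.

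Subtracting the mean shift of YLK804 and YAD350 turned signs. YBR096W became -0.11, MRPL8 -0.085, CKA2 -0.10, PSA1 -0.42, PAN1 -0.070, COQ5 -0.13, MRP4 -0.049, SSC1 -0.16, ILV5 -0.29, HSP12 -0.46, BUD19 -0.62, COX1 -0.080, ATP2 -0.069, ATP19 -0.21, PMR1 -0.18, CRS5 -0.061, YHR054C -0.26 and RSC30 -0.24. SNZ1 became 0.13, BUD22 0.26 and AAC3 0.15. Marker and mating type genes, which differ between those strains and BY4716, became 1.51 for LEU2, 4.01 for URA3, 2.17 for HIS3, 2.16 for MF(ALPHA)1, 1.78 for STE3, 1.43 for SAG1 and -2.16 for STE6. STE3 was also 0.12 with normexp at offset 0 and 0.20 in the deposited ratios. Among the 19 alternatives, CUP1-1 ranged from 3.51 to 4.26, CIT2 from -1.54 to -0.73 and COG4 from 0.34 to 0.84, and all 3 kept their calls. Dim probes limit some of the mitochondrially encoded genes. VAR1 had no strain signal well above background on any array of the comparison, and ATP6 and ATP8 had it on only part of them. Over the alternatives the list medians ranged from -0.73 to -0.27 for the iron regulon, 0.31 to 1.63 for the mitochondrially encoded genes, 0.09 to 0.41 for complexes II and III, -0.15 to 0.17 for ATP synthase and -0.03 to 0.14 for the mitochondrial ribosome, with 1 change of sign for each of the last 2 lists.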
